A study of Mus musculus with 20 samples.

Results

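Etv1, Etv4 and Etv5 form the PEA3 group of ETS transcription factors. ETS factors bind DNA at a short core through a shared domain, and the PEA3 group is known for acting at the end of receptor tyrosine kinase signalling. In that pathway RAS activates RAF kinases such as BRAF, RAF activates MEK, and MEK activates ERK. ERK raises the activity of these factors in several ways, among them release of their genes from the repressor Capicua (Cic), while the COP1 ubiquitin ligase removes the proteins. In the gut, Etv4 and Etv5 are best known as readouts of FGF and EGF signalling in epithelium, and Etv1 is best known from interstitial cells of Cajal, the pacemaker cells of the muscle wall.

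All probes that the array design assigns to the 3 genes were taken, 6 of 56605 probes, and the genes are 3 of 25043 named on the array. RNA of mouse intestinal tissue was measured on 20 one-colour arrays, 1 array per sample. In the first experiment 6 BRAFV600E arrays (VillinCreER/0/BrafV600E-LSL/+) were set against 6 Cre control arrays (VillinCreER/0). Per the study's methods these mice were 8 to 12 weeks old, each was given tamoxifen on 3 days at 2 mg a day, and the intestine was collected 3 days later. In the second experiment 4 MEKi arrays, from mice given the MEK inhibitor PD184352, were set against 4 Vehicle arrays. By the study's account, not by the labels, both of these groups carried the induced mutant Braf allele, after 2 injections of 100 µl tamoxifen at 10 mg/ml and then 3 daily injections of inhibitor or vehicle. Their age is not given separately in the sources used here. The strain of all 4 groups is given as C57BL6/j. The Villin promoter that drives CreER acts in gut epithelium, so muscle, nerve, stromal and immune cells in the same tissue carry no induced allele. In such bulk tissue fewer cells of a type and less RNA per cell cannot be told apart. For the first experiment the study's methods give 6 mice in each group, the same as the number of arrays. Where the labels do not say that arrays came from separate mice, p-values measure only the spread between these arrays.

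The 75th percentile of the signal, to which each array was scaled, ran from 525 to 1518 units, 60.8 to 76.8% of spots were well above background and 0 spots were saturated. No 2 of the 190 pairs of arrays held identical values. All 6 Cre control arrays and BRAFV600E replicates 1 and 2 were on slide 1, BRAFV600E replicates 3 to 6 on slide 2, and all MEKi and Vehicle arrays on slide 3. On slide 2 only 53 to 139 spike-in spots were above background, against 258 to 312 on the other slides. MEKi arrays filled one row of slide 3 and Vehicle arrays the other, so row and treatment cannot be told apart. Y-linked genes were high on 3 of 6 Cre control, 4 of 6 BRAFV600E, 4 of 4 MEKi and 2 of 4 Vehicle arrays. Epithelial markers (Epcam, Vil1, Cdh1 and 5 others) averaged 6.22 to 7.00 log2 units above the 75th percentile on every array. Braf itself did not pass the test in either comparison (log2 fold change 0.42, adjusted p = 0.172, and -0.50, adjusted p = 0.190, limma), and its probe does not distinguish the mutant allele.

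The letters under the probes are shown first, because probes of the same gene gave changes of unequal size. Positions are those of the array files, build mm9, and whether a probe lies in an exon, an intron or the end of a transcript was not analysed here. Etv4 has a probe at chr11:101631057-101631116 and a dimmer one at chr11:101631322-101631381, both on the minus strand with starts 265 bases apart. Etv5 has 1 probe, at chr16:22381387-22381446 on the minus strand. Etv1 has 3 on the plus strand, the brightest at chr12:39593054-39593113, one designed from a cDNA clone at chr12:39551431-39551487, and one at chr12:39507214-39507273 that was not well above background on any of the 20 arrays and was not tested. The last 30 bases of the 4 probes that the results turn on are printed 5′ to 3′, with the polyadenylation hexamer in capitals where it occurs.
Etv4, brightest probe: ttAATAAAgcctctgcttctccggttgttt
Etv4, dimmer probe: gggacttcccttgtttattatggcaacagg
Etv5, only probe: ctgtgtacAATAAAgaagattgctttcctt
Etv1, brightest probe: tgccatcctgctgttttggtactacaaata
The hexamer AATAAA lies in the end of the brightest Etv4 probe and of the Etv5 probe, and not in the end of the dimmer Etv4 probe or the brightest Etv1 probe.

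Etv4 rose strongly in BRAFV600E intestine. On its brightest probe the log2 level, with the array's 75th percentile at 0, ran from -0.83 to 0.82 with a median of -0.36 in the 6 Cre control arrays. In the 6 BRAFV600E arrays it ran from 2.11 to 2.57 with a median of 2.25. The groups did not overlap, and the gap between the highest Cre control and the lowest BRAFV600E array was 1.29. The group means of -0.19 ± 0.66 and 2.31 ± 0.23 (SD, n = 6 each) gave 2.50 as log2 fold change (SE 0.27, 95% confidence interval 1.92 to 3.08, adjusted p = 0.000172, limma), or 5.66-fold. It was the 32nd largest rise of 19040 genes tested. The control arrays spread more widely than the mutant arrays, from replicates 1 and 6 at the bottom to replicate 5 at the top. The dimmer probe moved further, with means of -4.18 ± 0.82 and 0.04 ± 0.18 (SD, n = 6 each) that lay 4.21 log2 units apart (SE 0.32, adjusted p = 3.35e-05 over all probes, limma), again without overlap. On this probe the control order differed, with replicates 6 and 4 highest.

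Etv5 rose in every BRAFV600E array, by a smaller amount. Its log2 level ran from 0.22 to 0.64 with a median of 0.41 in the Cre control arrays. In the BRAFV600E arrays it ran from 1.19 to 1.58 with a median of 1.45. The groups did not overlap and both were tight. With means of 0.41 ± 0.14 and 1.41 ± 0.14 (SD, n = 6 each) the rise was 1.00 log2 units (SE 0.11, 95% confidence interval 0.75 to 1.25, adjusted p = 0.000296, limma), or 2.0-fold, the 398th largest rise.

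Etv1 went the other way. On its brightest probe the log2 level ran from -1.29 to -0.09 with a median of -0.66 in the Cre control arrays. In the BRAFV600E arrays it ran from -1.78 to -1.01 with a median of -1.32. The groups overlapped, Cre control replicate 5 lying among the mutant arrays, and the log2 fold change was -0.73 (SE 0.20, 95% confidence interval -1.16 to -0.29, adjusted p = 0.0358, limma). The cDNA clone probe, at -3.87 ± 0.20 in Cre control and -5.05 ± 0.57 in BRAFV600E (SD, n = 6 each), fell by 1.17 on the log2 scale (SE 0.24, adjusted p = 0.0120 over all probes, limma), without overlap, and it was above background on 6 of 6 Cre control and 4 of 6 BRAFV600E arrays. The fall of Etv1 did not keep its call with slide as a block (-0.49, adjusted p = 0.288, limma) or without any 1 array other than Cre control replicate 5 or BRAFV600E replicate 1, 10 of 12 cases in which the adjusted p ran from 0.0511 to 0.0702.

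All 3 genes thus passed the test in this comparison, where 12.4% of all genes did (6.18% higher, 6.26% lower, and 7.36% with groups that did not overlap; 9.33% of all probes passed and 6.41% did not overlap). Slide 1 alone, which holds all controls and 2 of the mutant arrays, gave differences of 2.44 for Etv4 and 0.98 for Etv5, with adjusted p of 0.0253 and 0.0231 (limma). Of all genes called, 49.7% were higher in BRAFV600E. Without scaling between arrays that share was 98.1%, with the median of all genes shifted to 0.79, and with scaling to the median it was 73.6%, with a shift to 0.11. Without scaling, and so beside the larger of these shifts, Etv4 read 3.31, Etv5 1.81 and Etv1 0.083.

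**Figure D1:**
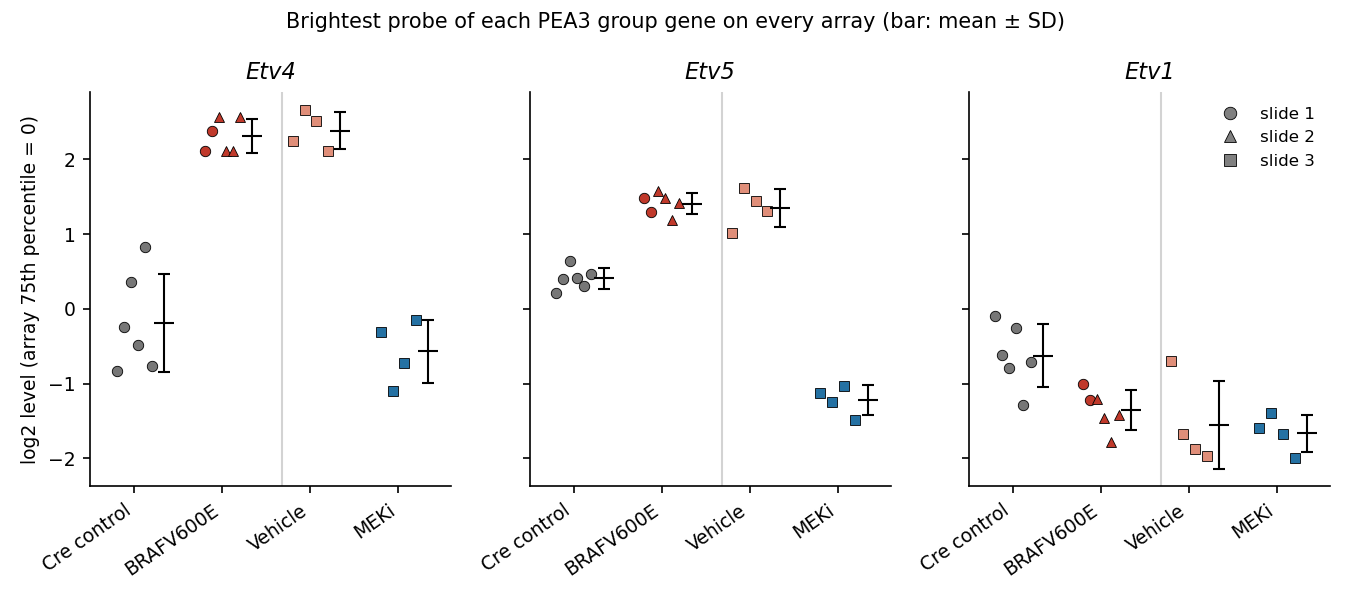
Log2 level of the brightest probe of Etv4, Etv5 and Etv1 (vertical axis, 75th percentile of each array at 0) on every array of the 4 groups (horizontal axis), with mean ± SD beside the points, symbols for slides and a line between the experiments. Etv4 and Etv5 are high in BRAFV600E and Vehicle and low in MEKi, and the Etv1 groups overlap.

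Under the MEK inhibitor, Etv4 and Etv5 were both far lower and Etv1 was not. For Etv4 the brightest probe read 2.25, 2.66, 2.51 and 2.11 in Vehicle replicates 1 to 4. In MEKi replicates 1 to 4 it read -0.32, -1.09, -0.72 and -0.15. Every treated array lay below every vehicle array, with a gap of 2.26. The log2 fold change was -2.95 (SE 0.23, 95% confidence interval -3.48 to -2.42, adjusted p = 0.00329, limma), a 7.73-fold fall and the 19th largest of 19231 genes tested. The dimmer probe fell by 3.57 on the log2 scale (SE 0.23, adjusted p = 0.00173 over all probes, limma), from 0.02 ± 0.30 to -3.55 ± 0.37 (SD, n = 4 each), also without overlap.

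Etv5 read 1.02, 1.61, 1.44 and 1.31 in the Vehicle arrays. In the MEKi arrays it read -1.12, -1.24, -1.03 and -1.48. The groups stood 2.05 apart, and the change was -2.57 (SE 0.17, 95% confidence interval -2.95 to -2.18, adjusted p = 0.00156, limma), a 5.92-fold fall and the 33rd largest.

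Etv1 read -0.69, -1.67, -1.87 and -1.97 in the Vehicle arrays. The MEKi arrays read -1.60, -1.39, -1.68 and -1.99. The groups overlapped throughout, Vehicle replicate 1 standing apart at the top, and the difference of -0.12 (SE 0.29, 95% confidence interval -0.78 to 0.55) did not pass the test (adjusted p = 0.896, limma). Its direction turned to 0.17 without that array. The cDNA clone probe was above background on 4 of 4 MEKi and 0 of 4 Vehicle arrays. Taken on group means it was at least 1.33-fold higher in MEKi, and the groups did not overlap, but it did not pass the test (adjusted p = 0.205 over all probes, limma). The lowest signal counted as above background differed between arrays, at -4.86 and -4.66 in Vehicle replicates 1 and 3. MEKi replicates 3 and 4, at -5.02 and -4.91, lay below both, so the detection counts of the groups are not on an equal footing. Neither Etv1 probe passed here, and by point estimate the 2 differed in direction, while the 2 Etv4 probes did not.

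In this comparison 1.98% of all genes passed (1.09% higher, 0.884% lower), 12.2% had groups that did not overlap, 0.927% of all probes passed, and 10.1% of all probes did not overlap. With 4 arrays a group the smallest p that an exact permutation test can give is 0.0286, which Etv4 and Etv5 reached. The Etv1 clone probe was tested only because its MEKi arrays were above background, so its separation is not counted here.

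**Figure D2:**
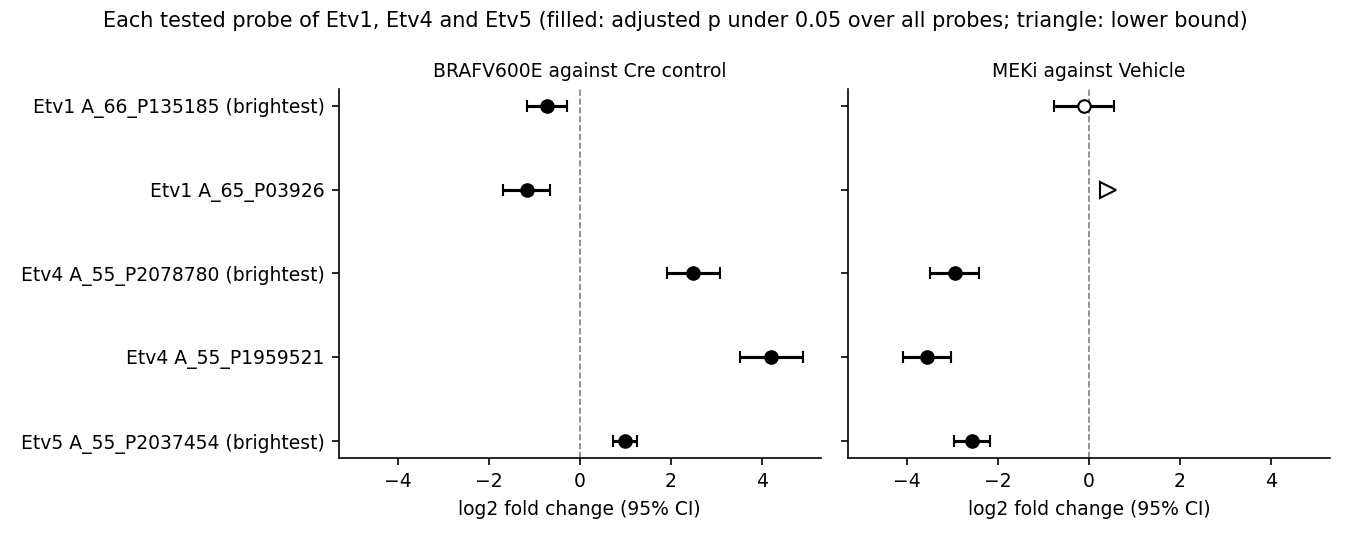
Log2 fold change (horizontal axis) with 95% confidence interval for each of the 5 tested probes (vertical axis), BRAFV600E against Cre control on the left and MEKi against Vehicle on the right, filled where the adjusted p over all probes was under 0.05. Both Etv4 probes and Etv5 rise on the left and fall on the right. The triangle is a lower bound, since the Etv1 clone probe was above background on 0 of 4 Vehicle arrays.

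Whether the members changed unequally was asked on each array from the difference of 2 members, in which the scale of the array drops out. Over the 3 pairs and both comparisons, 6 tests in all, the p-values are from exact permutation and adjusted over the 6. Each gene was read on its brightest probe. In BRAFV600E, Etv4 rose more than Etv5 by 1.5 log2 units, Etv4 moved 3.23 above Etv1 and Etv5 moved 1.73 above Etv1 (adjusted p = 0.00433 for each, two-sided exact permutation). The 2 Etv4 probes themselves rose unequally, by 2.50 and 4.21. A difference between Etv4 and Etv5 and a difference between probes therefore cannot be told apart in size. With the mean of a gene's probes, Etv4 rose more than Etv5 by 2.36. Under MEKi, Etv4 and Etv5 fell more than Etv1, with differences of -2.84 and -2.45 (adjusted p = 0.0343 for each, two-sided exact permutation). Between Etv4 and Etv5 the fall differed by -0.38, which did not pass (adjusted p = 0.286, two-sided exact permutation). This too depends on the probe, since the dimmer Etv4 probe fell by 3.57. In 4 other settings the difference ran from -0.69 to -0.38 and did not pass (adjusted p = 0.0857 to 0.286, two-sided exact permutation).

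The order of group levels was read for each gene on its own probe, side by side and without a test, since the experiments are on separate slides. Etv4 was highest in Vehicle (2.38 ± 0.25, SD, n = 4) and BRAFV600E, which overlapped, and lower in Cre control and in MEKi (-0.57 ± 0.42, SD, n = 4), which overlapped too. Etv5 was highest in BRAFV600E and Vehicle (1.35 ± 0.25, SD, n = 4), which overlapped, then Cre control, and lowest in MEKi (-1.22 ± 0.20, SD, n = 4). All 4 MEKi arrays lay below every Cre control array for Etv5, the highest at -1.03 against a lowest control of 0.22. In size, the interval of the Etv5 fall (-2.95 to -2.18) lies wholly beyond that of its rise (0.75 to 1.25), whereas those of Etv4 share a stretch. Etv1 was highest in Cre control and followed by BRAFV600E, Vehicle (-1.55 ± 0.58, SD, n = 4) and MEKi (-1.66 ± 0.25, SD, n = 4), each overlapping the next.

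Of the 20 tested ETS factors outside the group, 0 were called higher and 2 lower in BRAFV600E, Elk1 (-0.69, adjusted p = 0.0373, limma) and Fli1 (-0.52, adjusted p = 0.0367, limma), with a median log2 fold change of -0.14 against -0.02 over all genes. That is 10% of the list, near the 12.4% called over all genes. Both calls were lost with slide as a block. Elk1, a ternary complex factor at serum response elements, had a second probe in the opposite direction, and Fli1 is an endothelial and blood cell factor. The genes nearest the threshold were Etv3, 0.56 (adjusted p = 0.0565, limma), and Spib, -0.81 (adjusted p = 0.0719, limma). Under MEKi 0 of 21 passed in limma, and 1 had an unadjusted p under 0.05. Etv3 read -0.49 there (adjusted p = 0.125, limma) and, in the other direction, Erf read 0.22 (adjusted p = 0.361, limma). These were the 2 of 21 with groups that did not overlap, beside 12.2% of all genes. Elf5, Spi1 and Spic in the first comparison, and Etv2 and Spi1 in the second, were too dim to test.

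**Figure D3:**
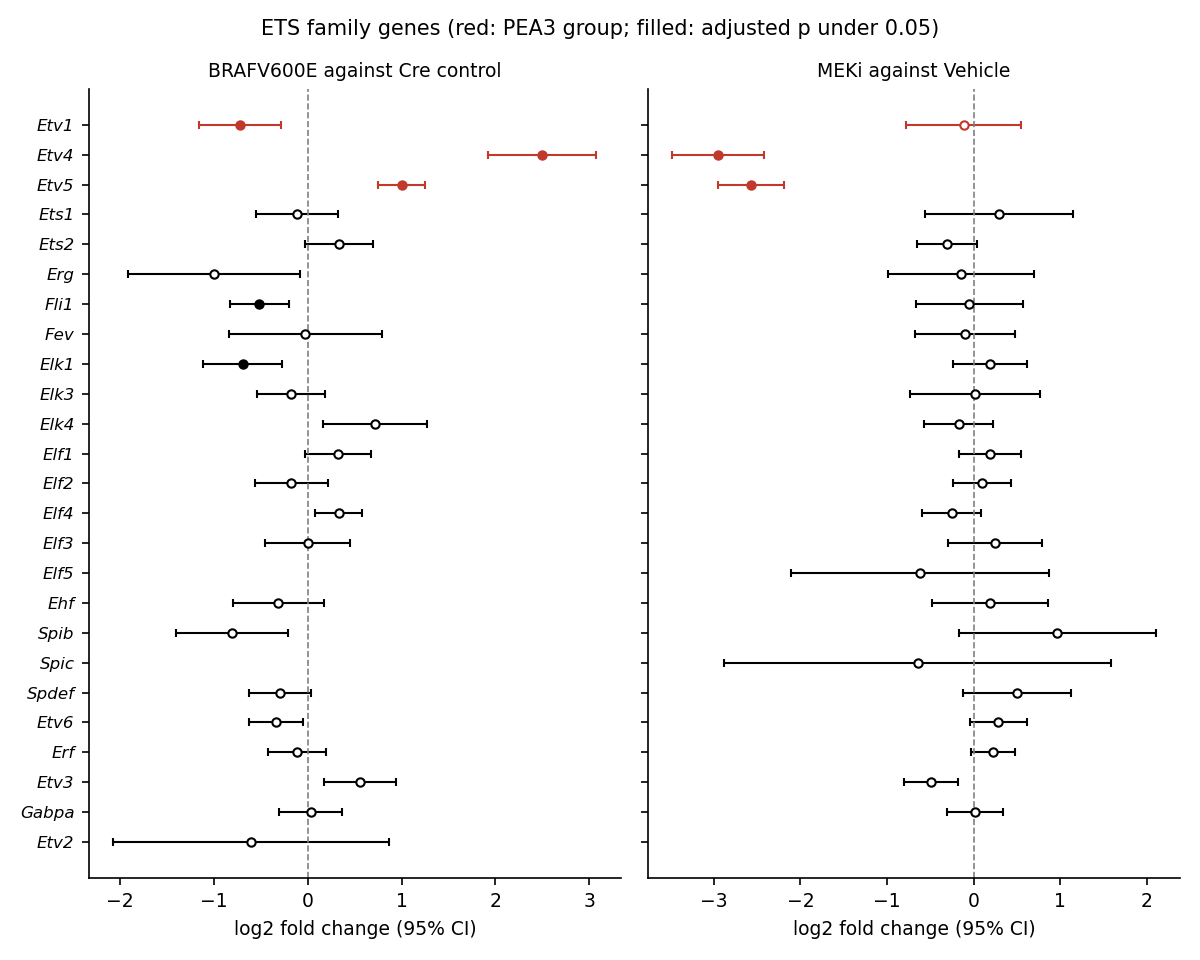
Log2 fold change (horizontal axis) with 95% confidence interval for the ETS family genes (vertical axis) in each comparison, PEA3 group in red, filled where the adjusted p was under 0.05. Etv4 and Etv5 stand away from 0 in opposite directions in the panels. On the left Erg lies about as far from 0 as Etv5, with a wide interval (-1.91 to -0.08). On the right the other family members lie nearer to 0 than Etv4 and Etv5. The panels have different horizontal scales.

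Genes known as outputs of ERK, mostly its own feedback inhibitors, were set beside the group. Of 17, 10 rose and 0 fell in BRAFV600E, 58.8% against 12.4% called over all genes, with a median log2 fold change of 0.72 against -0.02 over all genes. Spry4, a Sprouty inhibitor of receptor signalling, rose by 2.19 (SE 0.28), Phlda1 by 1.76 (SE 0.35), the phosphatase Dusp4 by 1.65 (SE 0.19) and the immediate early factor Egr1 by 1.26 (SE 0.27). Under MEKi 5 of 17 fell and 0 rose, 29.4% against 1.98%, with a median of -0.81 against 0.04 over all genes. These were Spry4 (-2.34, SE 0.24), Phlda1 (-2.14, SE 0.38), Dusp4 (-1.70, SE 0.23), Spred1 (-1.61, SE 0.17), a relative of the Sproutys, and Spry1, and all 5 are among the 10 that rose in BRAFV600E. The ERK phosphatase Dusp6 rose by 0.72 and read -1.50 under MEKi, just outside the threshold (adjusted p = 0.0503, limma). By point estimate Etv4 changed more in both comparisons than any of the 17, and Etv5 more than any of the 17 under MEKi.

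**Figure D4:**
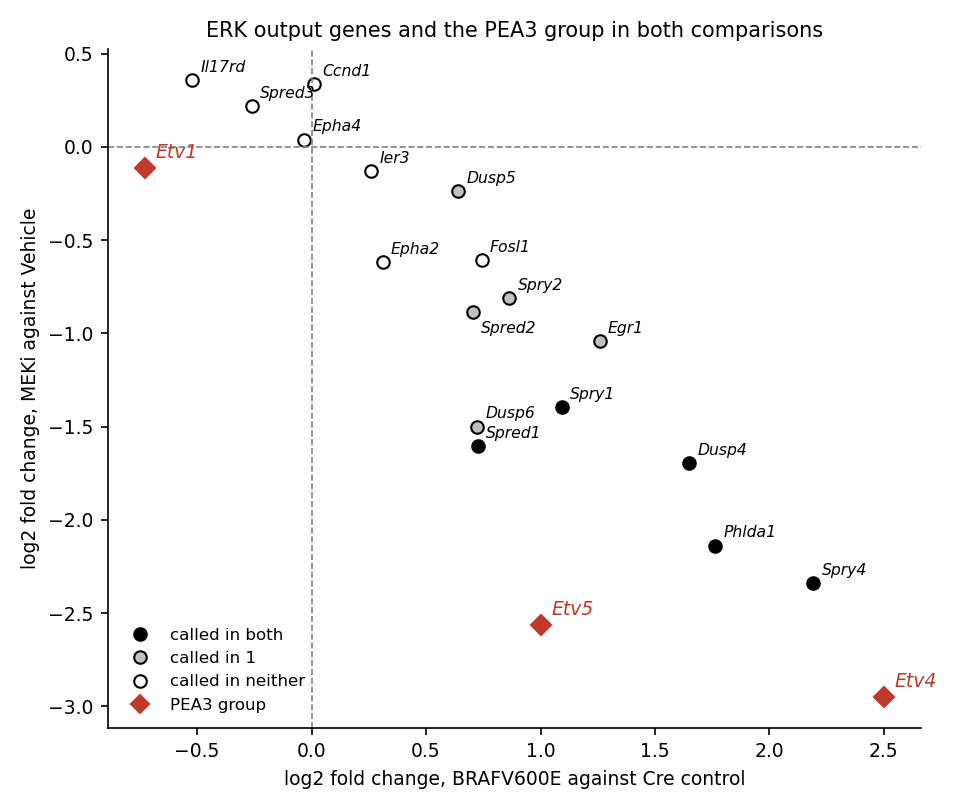
Log2 fold change in BRAFV600E against Cre control (horizontal axis) and in MEKi against Vehicle (vertical axis) for 17 ERK output genes (circles) and the PEA3 group (red diamonds), filled by how many comparisons called them. Etv4 lies at the lower right beyond Spry4, Etv5 lies below the circles of like rise, and Etv1 lies left of 0.

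Of 13 tested regulators of the group, 1 rose in BRAFV600E, Cop1, the ubiquitin ligase that targets PEA3 proteins (0.58, SE 0.13, adjusted p = 0.0127, limma), a call that was lost with slide as a block. The adaptor Det1 of the same ligase read -0.14, and the pseudokinases Trib1 and Trib2, which recruit it, read 0.47 (adjusted p = 0.0860, limma) and 0.19. Cic, the repressor, read 0.08 (SE 0.11, adjusted p = 0.676, limma) and its partners Atxn1 and Atxn1l read 0.32 and 0.47, while the kinases Mapk3, Rps6ka1 and Rps6ka3 read 0.34, -0.08 and 0.21. The coactivators Ep300 and Crebbp read 0.24 and -0.41. Probes in the direction opposite to the value given numbered 2 of 3 for Cic and 1 of 3 for Trib1, Ep300 and Crebbp. For Atxn1l and Rps6ka1 it was 1 of 2, and the other regulators named had none. Only Cop1 was called among the 13, 7.69% against 12.4% of all genes. Under MEKi 0 of 13 passed in limma, and 1 had an unadjusted p under 0.05. Cic read 0.03 and Cop1 -0.31 there, each with 1 probe in the opposite direction.

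Of 14 tested genes reported elsewhere as targets of PEA3 factors, 0 rose and 1 fell in BRAFV600E, Mmp7 (-2.10, SE 0.39, adjusted p = 0.00630, limma), a metalloprotease of Paneth cells in the small intestine. That is 7.14% of the list, against 12.4% of all genes. Under MEKi 0 of 14 passed in limma and 3 had an unadjusted p under 0.05, and Mmp7 read 1.32 (adjusted p = 0.289, limma). Of 8 growth factor receptors upstream, Fgfr3 fell in BRAFV600E (-1.0, adjusted p = 0.000547, limma), with another probe in the opposite direction, and this 1 call of 8 (12.5%) is near the 12.4% of all genes. Kit passed under MEKi (0.75, adjusted p = 0.0463, limma), again 1 of 8, against 1.98% of all genes. The Kit call was lost in each of the 8 fits that left out an array and in at least 6 of 8 other settings.

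Markers of other cell types were read beside Etv1. All 6 enteric neuron markers were lower in BRAFV600E, 1 of them called (Uchl1, -1.03, adjusted p = 0.0181, limma), and their mean level ran from -1.30 to -0.65 in BRAFV600E and from -0.51 to -0.16 in Cre control arrays. Of 4 glial markers 2 fell, among them S100b (-0.81, adjusted p = 0.0439, limma), and the mean level of the list ran from -3.32 to -2.92 in BRAFV600E and from -2.89 to -2.13 in Cre control arrays. Among 3 tested markers of interstitial cells of Cajal 0 were called in limma and 2 had an unadjusted p under 0.05. These were Edn3 (1.09, SE 0.35, adjusted p = 0.0578, limma) and, in the other direction, Kit (-0.50, adjusted p = 0.0638, limma), while Ano1 read -0.01. Smooth muscle markers gave 2 of 6 called higher (Actg2 and Des, the latter with another probe in the opposite direction), and enteroendocrine markers 2 of 5 called lower (Chga and Pax4), beside 12.4% called over all genes. The enteroendocrine list went both ways, with Tph1 at 0.71 (adjusted p = 0.0539, limma) and Chgb at -0.11 (adjusted p = 0.720, limma). All 4 T cell markers were lower, 1 called (Cd3g, -0.98), all 4 myeloid markers were lower, 2 called (Lyz2, -1.75, and Csf1r, -0.69), and all 4 B and plasma cell markers were lower, 0 called in limma and 2 with an unadjusted p under 0.05. The 5 fibroblast and 4 endothelial markers went both ways in BRAFV600E, with medians of -0.05 and 0.24. Among these 0 were called in limma and 0 had an unadjusted p under 0.05. Under MEKi all 6 enteric neuron markers were higher, with a median of 0.46, 0 called in limma and 2 with an unadjusted p under 0.05. All 4 T cell markers were higher too, 0 called in limma and 2 with an unadjusted p under 0.05. All 5 fibroblast markers were lower, 0 called in limma, and the other lists went both ways. Kit was the 1 marker of these lists called there. The part of these cells in the Etv1 result was not tested. Epithelial markers, where the allele acts, gave 1 of 8 called higher, Cdh1, and mean levels of 6.22 to 6.85 in BRAFV600E against 6.24 to 6.79 in Cre control arrays.

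Genes were ranked by how closely they followed each member, as the mean of Pearson's r over the 12 arrays and over the 8 arrays, among 18357 genes tested in both. For Etv4 the nearest were Eif4ebp1, a brake on translation (0.962), S100a6 (0.962), Tcf23 (0.953), Etv5 (0.951) and Tm4sf4 (0.949). For Etv5 they were Tcf23 (0.980), Ankrd22 (0.968), the water channel Aqp5 (0.961), Mboat1 (0.960) and Tm4sf4 (0.959), with Etv4 at place 8. For Etv1 they were Acsl6 (0.852), Gas1 (0.827), Plod2 (0.824), Chl1 (0.824) and Fez1 (0.822), of which Chl1 and Fez1 are known from neurons. The points share arrays, slides and groups that stand apart for Etv4 and Etv5, so these values describe the group differences as much as anything finer.

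Start sites of the group were searched for short motifs on both strands, in RefSeq promoter windows of equal length (build GRCm38.p6), at the 2 listed start sites of Etv1 and the 2 of Etv5. The Etv4 promoter was not analysed here. The Capicua octamer was read as TGAATGAA, TGAATGGA, TGAATGAG or TGAATGGG, the last 2 forms added after the sequences were read. The window at the second Etv5 start holds TGAATGGG 3 times, 242 and 198 bases before the start on the gene's strand and 131 bases before it on the other. The first 2 forms, in 1.3% and 1.21% of the 32851 windows, and the third, in 1.2%, matched in 0 windows of either gene. TGAATGGG is in 1.08% of windows, a share that tests nothing here, since the form was added after the window was read. The AP-1 site TGANTCA (7.81% of windows) and the ETS site CCGGAAG (8.86%) matched in no window of either gene. The 250 bases before the second Etv5 start, chr16:22438369-22438618 on the minus strand of GRCm38.p6, follow 5′ to 3′. The octamer on either strand is in capitals. This window is printed because it alone, of those searched, held a match.
Etv5, second start: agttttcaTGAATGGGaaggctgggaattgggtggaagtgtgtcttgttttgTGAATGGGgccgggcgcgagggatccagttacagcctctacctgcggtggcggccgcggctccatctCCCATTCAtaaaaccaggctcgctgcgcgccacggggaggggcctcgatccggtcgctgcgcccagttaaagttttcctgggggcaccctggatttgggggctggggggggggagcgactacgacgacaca
A match describes these letters and no binding was measured.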

How the data were processed

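RNA was amplified, labelled with Cy3 and hybridised to one-colour Agilent arrays. Per the file headers and labels, the authors read spot intensities with Agilent Feature Extraction 10.5.1.1, and the deposited intensity used here is its processed signal, already background-subtracted, beside deposited marks (other, 0 or 1) for spots well above background. The deposited value table held the same intensity within 0.5% and was used only for the setting without scaling between arrays.

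Log2 intensity minus the 75th percentile of each array was computed here. Control spots were left out. Probes were named through RefSeq symbols (56605 probes, of which 12271 took no symbol), and a gene was represented by its brightest probe over the 20 arrays. Genes well above background on at least 6 of 12 or 4 of 8 arrays were tested in each experiment on its own arrays with limma 3.58.1 in R 4.3.3 (lmFit, eBayes, Benjamini-Hochberg, called at adjusted p under 0.05). Other probes of the 3 genes were tested in the same fit over all probes. Where a group had no array above background, a fold is given as a lower bound, set against the lowest signal among probes above background on each array. The script was tested on simulated data. A treatment text attached to all samples, about a statin, matches none of the 4 groups and was not used.

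The genes, lists and tests were chosen with earlier results of these data known. Named were every probe of the 3 genes, up to 4 called genes per list, direction and comparison with the largest change, every regulator but 1 that is not reported here, the 5 nearest genes by correlation, and Braf. Etv3, Erf, Erg, Spib, Spry1, Dusp6 and the markers named were added after their values were seen. Replicate numbers follow the order of the samples. Precision is limited by the number of arrays, since intensities carry no counts.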

Additional observations from a re-analysis of the deposited data

Results flagged for a closer look

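In 107 groups of arrays over 28 probes of the named genes, 6 had an array far from the others of its group, and chance alone sets such an array apart in about 1 of 20 groups. For the 3 PEA3 genes this was the Etv1 clone probe in Cre control replicate 2, at -4.272 against -3.869 to -3.731 in the others. Fli1 read -2.369 in Cre control replicate 5. Phlda1 read 4.331 in Vehicle replicate 3. Mmp7 read 2.266 in Vehicle replicate 2. Rps6ka1 read 4.922 in Cre control replicate 4 and Ep300 read -0.4727 in MEKi replicate 2. Values are log2 levels with the 75th percentile of the array at 0.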

How the results depend on the processing

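Etv4 and Etv5 kept their direction and their call in both comparisons under every setting run (BRAFV600E 2.29 to 3.36 and 0.90 to 1.81; MEKi -3.26 to -2.70 and -2.59 to -2.28) and with any single array left out. Etv1 in BRAFV600E read 0.083 without scaling between arrays, -0.73 without the filter on dim probes (adjusted p = 0.0531, limma), -0.60 with median scaling (adjusted p = 0.0709, limma), -0.49 with slide as a block and -0.49 within slide 1, and -0.86 to -0.62 with an array left out. In 5 of 10 settings other than leaving out an array, Etv1 in BRAFV600E kept its call. These included the mean of its probes (-0.95, adjusted p = 0.00830, limma) and every probe tested (adjusted p = 0.0450, limma). Etv1 under MEKi read 0.52 as the mean of its probes and -0.26 to 0.17 with an array left out. The difference of Etv5 and Etv1 under MEKi ran from -2.85 to -2.31 with an array left out, and lost its call without any 1 of the MEKi arrays (adjusted p = 0.0571 to 0.0686, exact permutation).

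Genes called in BRAFV600E numbered 2369, and 3591 probes were called when every probe was tested, 9332 genes without scaling, 3708 with array weights, 1535 with slide as a block (30.2% of them higher), 746 within slide 1 (24.9% higher), and 1445 (without Cre control replicate 3) to 2886 with an array left out. Under MEKi they numbered 380, and 234 without the filter, 72 without scaling (45.8% higher against 55.3%), 53 with the Y-linked level as a covariate (43.4% higher), 1104 with array weights, and 82 (without MEKi replicate 1) to 371 with an array left out. Counts below 190 also came when MEKi replicate 3 or 4, or Vehicle replicate 3 or 4, was left out, and 190 without Vehicle replicate 1. In BRAFV600E, 1516 were left without Cre control replicate 2.

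Called ETS factors outside the group in BRAFV600E numbered 0 without the filter, with slide as a block and within slide 1, 1 after normexp and quantile normalisation and with the Y-linked covariate, 7 without scaling, 5 with array weights, and 0 to 3 with an array left out. Called ERK output genes numbered 2 within slide 1, and under MEKi 2 without scaling, 1 with the Y-linked covariate, 8 with array weights and 3 to 7 with an array left out. Called regulators numbered 0 as the mean of probes, with slide as a block and within slide 1, 9 without scaling, 2 with median scaling, 3 with array weights and 1 to 2 with an array left out. Reported targets numbered 6 without scaling. Receptors numbered 2 without scaling and with median scaling, 4 with array weights and 1 to 3 with an array left out, and under MEKi 2 with array weights and 0 when every probe was tested, as the mean of probes, without the filter, without scaling, with median scaling, with the Y-linked covariate and with any array left out. The causes were not tested. Slide as a block was not run for MEKi, where all arrays share 1 slide, nor the pair tests under covariates, weights, the filter or every probe.

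No paired analysis was possible because the labels give no replicate numbers, so the numbers only follow the order of the samples.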
